A study of Homo sapiens with 6 samples.

Results

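The genes examined here build the acidic, degradative lysosome of U87MG cells: the subunits of the vacuolar proton pump, the cathepsins, a set of other hydrolases, and proteins of the lysosomal membrane with their carriers and the regulator TFEB. The pump genes were taken as every measured gene whose symbol starts with ATP6V0, ATP6V1 or ATP6AP, and 27 further genes were taken by name, of which 25 were measured. Together these were 46 of the 17687 genes measured. Of the 46, 21 belong to the pump (7 to the membrane sector V0, 12 to the cytosolic sector V1 and 2 accessory proteins), 11 are cathepsins, 7 are other hydrolases and 7 are membrane proteins, carriers or regulators. Each was read from 1 probe set. ATP6V0A1, ATP6V0A4, ATP6V1E2, ATP6AP1L, GLB1 and NPC2 were not analysed here.

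The lysosome digests proteins, glycans and lipids delivered by endocytosis and autophagy, and its enzymes work at low pH. The vacuolar ATPase provides that pH: the V1 sector hydrolyses ATP in the cytosol and turns a ring of V0 subunits that carries protons across the membrane. Cathepsins are the lysosomal proteases, and the other hydrolases cleave sugars, lipids or peptides. Transcription factors of the MiT/TFE family, TFEB among them, bind a short E-box motif in the promoters of many lysosomal genes. In glioblastoma cells, cathepsins B, D and L are known as proteases that can be secreted and act on the surrounding matrix.

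U87MG, an established line, was derived from a human glioblastoma. Cells held in low-serum medium were given 30 µM P-bi-TAT, an agent directed at the integrin αvβ3, for 24 h (3 arrays), or PBS alone (3 arrays, called untreated), and expression was read on Affymetrix Clariom S arrays. All 6 arrays come from this 1 line, with no gene altered, and no source says whether the replicates of a group were separate cultures, so the p-values reflect the spread between these arrays alone, which may be technical. Values are log2 expression values as deposited, so a difference of 1 is 2-fold.

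The array of P-bi-TAT replicate 1 was unlike the other 5. The median gene probe set read 3.52 on it and 4.73 to 4.85 elsewhere, only 4527 different values occurred (23072 to 23438 elsewhere), and 8.44% of all genes lay above their untreated mean in it, against 48.9% and 49.9% in replicates 2 and 3. The median difference from the untreated mean over all genes was -1.23, -0.02 and -0.00 in P-bi-TAT replicates 1, 2 and 3. Differences are therefore given with all 6 arrays and without that array. Of 10 genes chosen as marks of this line, VIM and CD44 exceeded the 95th percentile of 612 negative control probe sets on all 6 arrays. ITGAV and ITGB3 (the chains of αvβ3) exceeded it on some arrays, and CHI3L1, SOX2, NES, S100B, GFAP and OLIG2 on none. Of 7 macrophage and microglia markers, the other main source of cathepsins in brain tumours, TYROBP alone exceeded it on any array. The mean of that list lay between 3.79 and 4.6 in untreated arrays and between 3.54 and 3.92 after P-bi-TAT. None of the endothelial, oligodendrocyte, neuronal or epithelial markers exceeded it. Of the 46 lysosomal genes, 22 exceeded that percentile on all 6 arrays and 10 on none.

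The sequences that MiT/TFE factors recognise can be seen in the promoters of part of these genes. Promoter windows of RefSeq on GRCh38.p14, from 250 bases before to 50 after an annotated transcript start, were held for 32 of the 46 genes and searched on both strands for TCACGTG, which contains the shorter E-box CACGTG. At least 1 window held TCACGTG in 10 of the 32 genes (31.2%), against 830 of 14250 measured genes with a window (5.82%), and CACGTG in 11 of 32 (34.4%) against 10.8%. By class these were 4 of 15 pump genes, 3 of 7 cathepsins, 1 of 5 hydrolases and 2 of 5 membrane proteins and regulators. Such a match is a description of the letters and not a bound site. The stretches printed below, read 5′ to 3′ in the direction of transcription and ending before the start, are shown because their genes carry the values described later, and capitals mark the matches with any further base of the palindrome. The matches of MCOLN1, the calcium channel of the lysosomal membrane, lie in chr19:7522557-7522623 on the + strand, and the last ends 7 bases before the start.
MCOLN1: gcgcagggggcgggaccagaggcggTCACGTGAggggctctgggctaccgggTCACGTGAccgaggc
ATP6V0E2, a small membrane subunit of the pump, has 1 match in chr7:149872870-149872926 on the + strand, and CTSD, an aspartic protease, has 1 on the opposite strand in chr11:1763943-1763999 on the - strand.
ATP6V0E2: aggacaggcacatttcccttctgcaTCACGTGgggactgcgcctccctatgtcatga
CTSD: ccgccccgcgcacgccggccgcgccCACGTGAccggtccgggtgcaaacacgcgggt
LAMP1, an abundant glycoprotein of the lysosomal membrane, has 5 matches in chr13:113297021-113297238 on the + strand and 1 more that spans the start and is not printed.
LAMP1: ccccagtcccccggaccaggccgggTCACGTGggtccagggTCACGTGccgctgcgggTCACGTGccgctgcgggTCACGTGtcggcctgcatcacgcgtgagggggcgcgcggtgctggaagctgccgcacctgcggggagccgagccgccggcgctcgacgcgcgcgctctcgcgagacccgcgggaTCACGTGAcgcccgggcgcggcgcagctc
GAA, which degrades lysosomal glycogen, and CTSA, a carboxypeptidase that protects other lysosomal enzymes, have 2 matches each, in chr17:80101479-80101580 on the + strand and chr20:45891267-45891334 on the + strand.
GAA: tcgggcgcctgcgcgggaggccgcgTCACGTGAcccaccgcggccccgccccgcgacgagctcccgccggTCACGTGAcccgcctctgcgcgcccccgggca
CTSA: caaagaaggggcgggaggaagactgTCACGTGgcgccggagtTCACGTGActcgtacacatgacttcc
CD63, a tetraspanin of late endosomes and exosomes, has CACGTG but not the longer form, in chr12:55729159-55729214 on the - strand.
CD63: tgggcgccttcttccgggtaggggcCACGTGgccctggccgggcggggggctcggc
The first 3 of these genes lay higher in P-bi-TAT replicates 2 and 3 than in all untreated arrays, LAMP1, GAA and CTSA did not, and CD63 lay lower.

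Few of the 46 genes separated the groups when all 6 arrays were used. In limma, 0 of the 46 passed an adjusted p under 0.05, and so did 0 of all 17687 genes (0% called, smallest adjusted p = 0.847), while 914 of all genes and 1 of the 46 had an unadjusted p under 0.05. At 1.5-fold and an unadjusted p under 0.05, called the nominal limits from here on, 0 of the 46 were higher after P-bi-TAT, against 0.192% of all genes, and 1, CD63, was lower, against 4.98%. The methods' one-way test, run on the same values, gave 1 of all genes after adjustment and 3 of the 46 at an unadjusted p under 0.05 (ATP6V0E1, ATP6V1G3 and CD63). Groups did not overlap for 1 gene that lay higher after P-bi-TAT (ATP6V0E1), against 0.758% of all genes, and for 4 that lay lower (CD63, LIPA, GUSB and ATP6V1G3, or 8.7% of the 46), against 14.5%. An exact permutation test of 3 arrays against 3 cannot give a two-sided p below 0.1, which is the value for each of these 5.

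Without P-bi-TAT replicate 1 more of them passed the nominal limits, and most lay higher. No gene of the 17687 passed an adjusted p under 0.05 in limma (0% called, smallest adjusted p = 0.0988), and the smallest adjusted p among the 46 was 0.151. The nominal limits were passed by 10 of the 46 in the higher direction (21.7%), against 9.26% of all genes, and by 2 in the lower direction (4.35%), against 5.31%. The 10 were 5 pump genes (ATP6V0C, ATP6V0E2, ATP6V1D, ATP6V1E1 and ATP6V1F), 3 cathepsins (CTSB, CTSD and CTSO), the hydrolase GLA and the channel MCOLN1, and the 2 were CD63 and TFEB. Groups did not overlap for 17 in the higher direction (37%) against 19.1% of all genes, and for 6 in the lower direction (13%) against 17.9%. After cyclic loess, a scaling added once the data had been seen that removes trends of the difference with brightness, 7 of the 46 passed the nominal limits higher (15.2%) against 6.36% of all genes, and 4 lower (8.7%) against 5.21%. The difference in mean changed sign for 18 of the 46 genes when the array was left out, and the share over all genes was not counted. The median difference over all genes moved from -0.43 to -0.01 with the same array left out.

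**Figure D1:**
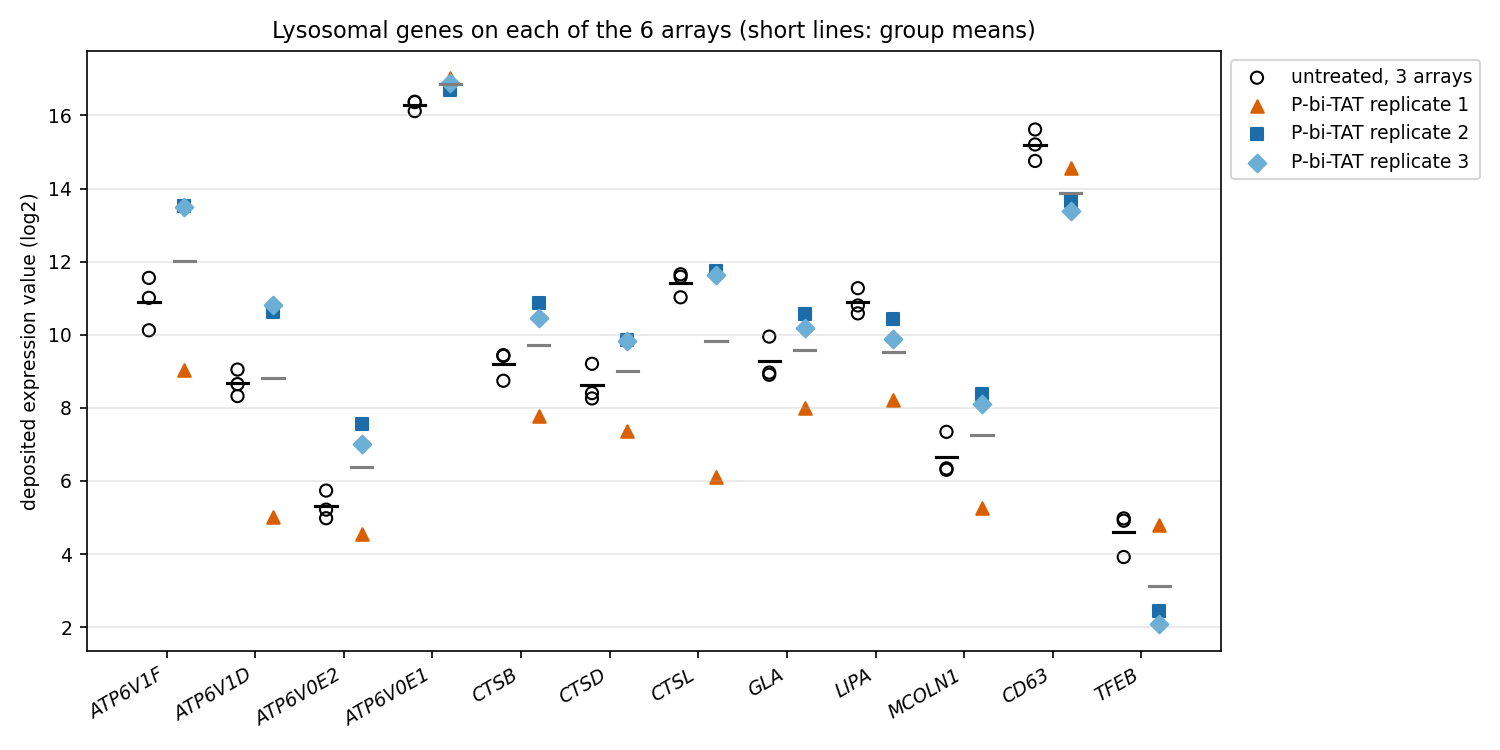
Log2 values of named lysosomal genes on each of the 6 arrays, with 1 point per array and short lines at the group means. P-bi-TAT replicate 1 lies below the untreated arrays for ATP6V1F, ATP6V1D and CTSB, while replicates 2 and 3 lie above them, and CD63 lies below them in all 3.

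In the V1 sector, the cytosolic motor, ATP6V1F, ATP6V1D and ATP6V1E1 passed the nominal limits without replicate 1, and the other 9 subunits did not. ATP6V1F, a small subunit at the end of the rotor, had log2 values of 11.56, 11.01 and 10.12 in untreated replicates 1 to 3 and 9.04, 13.52 and 13.51 in P-bi-TAT replicates 1 to 3. Replicates 2 and 3 lay above all untreated arrays and replicate 1 below them. The difference was 1.13 (SE 1.23) with all arrays (adjusted p = 0.879 in limma) and 2.62 (SE 0.49), or 6.15-fold, without replicate 1 (adjusted p = 0.151). ATP6V1D, the rotor shaft, had 8.32, 9.05 and 8.65 in untreated replicates 1 to 3 and 5.00, 10.62 and 10.82 in P-bi-TAT replicates 1 to 3. The groups overlapped only through replicate 1, and the difference was 0.14 (SE 1.5) with it and 2.05 (SE 0.40), or 4.13-fold, without it (limma, adjusted p = 0.151). ATP6V1E1, part of the peripheral stalks that hold the motor still, had 9.40, 9.72 and 10.02 in untreated replicates 1 to 3 and 6.75, 10.96 and 11.27 in P-bi-TAT replicates 1 to 3, again on both sides of the untreated arrays, with a difference of -0.05 (SE 1.17) with all arrays and 1.40 (SE 0.39) without replicate 1 (limma, adjusted p = 0.214).

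Other V1 subunits did not pass the nominal limits in either fit. ATP6V1A, the subunit that binds and hydrolyses ATP, had 8.86, 10.11 and 10.63 in untreated replicates 1 to 3 and 5.28, 10.49 and 10.55 in P-bi-TAT replicates 1 to 3. Its P-bi-TAT replicates 2 and 3 lay within the range of the untreated arrays, and the difference was -1.10 (SE 1.43) with all arrays and 0.65 (SE 0.55) without replicate 1. ATP6V1B2, the partner of ATP6V1A in the catalytic ring, differed by -1.24 with all arrays and 0.04 without replicate 1. ATP6V1C1, a stator subunit that takes part in the assembly of V1 on V0, was spread among untreated arrays, with 6.12, 9.81 and 9.37, and differed by -1.11 with all arrays and 0.35 without replicate 1. The differences with all arrays and without replicate 1 were -0.83 and 0.44 for ATP6V1H, which couples assembly to activity, and -0.18 and 0.85 for ATP6V1G1, a stalk subunit.

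In V0, the membrane sector, ATP6V0E2 and ATP6V0C stood out in replicates 2 and 3. ATP6V0E2 had 5.22, 5.74 and 4.98 in untreated replicates 1 to 3 and 4.55, 7.56 and 7.01 in P-bi-TAT replicates 1 to 3. Replicates 2 and 3 lay above every untreated array and replicate 1 below, with a difference of 1.06 (SE 0.81) with all arrays and 1.97 (SE 0.42), or 3.93-fold, without replicate 1 (limma, adjusted p = 0.158). Only replicates 2 and 3 exceeded the 95th percentile of negative controls for ATP6V0E2. Its untreated values lay at percentiles 74.5, 87.6 and 77.6 of those controls. ATP6V0C, the proteolipid that makes up most of the proton-carrying ring, had 11.70, 11.08 and 10.93 in untreated replicates 1 to 3 and 9.02, 12.49 and 12.31 in P-bi-TAT replicates 1 to 3, with replicates 2 and 3 above all untreated arrays. It differed by 0.04 (SE 0.95) with all arrays and by 1.16 (SE 0.41), or 2.24-fold, without replicate 1 (limma, adjusted p = 0.269). ATP6V0D1, which joins the ring to the rotor, had 12.10, 11.13 and 11.61 in untreated replicates 1 to 3 and 9.94, 12.49 and 12.28 in P-bi-TAT replicates 1 to 3, and its differences of -0.05 (SE 0.75) with all arrays and 0.77 (SE 0.42) without replicate 1 did not pass the nominal limits. With all arrays and without replicate 1 another ring subunit, ATP6V0B, differed by -0.18 and 0.63, and ATP6V0A2, which forms the proton path with the ring, by -0.71 and 0.04. After cyclic loess without replicate 1 ATP6V0C lay outside the nominal limits, at 0.75, and ATP6V0E2 within them, at 1.72.

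ATP6V0E1, the paralog of ATP6V0E2, was the only one of the 46 genes above its untreated mean in all 3 P-bi-TAT arrays. Of all 17687 genes, 516 were. It had 16.36, 16.12 and 16.38 in untreated replicates 1 to 3 and 17.02, 16.70 and 16.90 in P-bi-TAT replicates 1 to 3, so the groups did not overlap and replicate 1 was the highest of all. The mean was 16.29 ± 0.15 (SD, n = 3) untreated and 16.87 ± 0.16 (SD, n = 3) after P-bi-TAT. The difference of 0.59 (SE 0.37) did not pass the nominal limits, and was 0.51 (SE 0.37) without replicate 1. After cyclic loess it was 0.48 with all arrays and 0.08 without replicate 1, and after quantile normalization of all arrays 0.13. ATP6V0E1 was singled out after its values were seen. Of the accessory proteins, ATP6AP2, the prorenin receptor, had 10.35, 12.35 and 12.57 in untreated replicates 1 to 3 and 7.09, 11.87 and 12.49 in P-bi-TAT replicates 1 to 3, and ATP6AP1, which aids assembly of V0, had 7.89, 5.15 and 7.07 in untreated replicates 1 to 3 and 5.59, 7.72 and 7.38 in P-bi-TAT replicates 1 to 3. Both groups overlapped for both genes, with differences of -1.27 and 0.19 with all arrays and 0.43 and 0.85 without replicate 1.

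The pump genes were also set apart, outside the planned classes, by whether textbook knowledge gives them as isoforms of a few tissues. The 16 not so assigned all lay above their untreated mean in both P-bi-TAT replicates 2 and 3, and 15 of the 16 below it in replicate 1. All 5 isoforms best known from kidney, bone, epididymis or neurons (ATP6V0D2, ATP6V1B1, ATP6V1C2, ATP6V1G2 and ATP6V1G3) lay below it in all 3 arrays. Of all genes 39.7% lay above their untreated mean in both replicates 2 and 3, and 37.3% below it in all 3 arrays. The 5 never exceeded the 95th percentile of negative controls on any array. ATP6V0E2, counted with the 16, exceeded it only in P-bi-TAT replicates 2 and 3. The split is a description and was not tested. The median difference without replicate 1 was 0.71 for the 16 and -0.55 for the 5, against -0.01 for all genes, and with all arrays it was -0.12 and -0.60, against -0.43. ATP6V1G3, the kidney isoform of the stalk, had 6.38, 5.89 and 6.22 in untreated replicates 1 to 3 and 5.33, 5.57 and 4.87 in P-bi-TAT replicates 1 to 3, and its groups did not overlap. It differed by -0.90 (SE 0.41) with all arrays and -0.94 (SE 0.41) without replicate 1.

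Over all genes the differences also went with brightness. Of the 3549 genes above the 95th percentile of negative controls on all untreated arrays, 58.9% lay above their untreated mean in both replicates 2 and 3, with a median difference of 0.32 without replicate 1 and -2.43 in replicate 1. Of the 2688 genes above the negative control median on none of the 3 untreated arrays, 23.1% did, with medians of -0.16 and -0.16. These sets do not match the split. Each of the 5 restricted isoforms exceeded that median on at least 1 untreated array, so none is in the dimmer set. Of the 16, ATP6V0A2, ATP6V0E2, ATP6V1C1, ATP6V1H and ATP6AP1 are not in the brighter set. Both sets were picked on untreated values that also enter the differences. After cyclic loess without replicate 1, 13 of the 16 subunits and 0 of the 5 restricted isoforms lay above 0 (medians 0.30 and -0.25), against 46.3% of the brighter genes (median -0.07) and 66.0% of the dimmer ones (median 0.17). The medians of the negative controls themselves were 3.67 to 3.98 untreated and 3.20 to 3.27 after P-bi-TAT. The part of brightness in the split was not tested.

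**Figure D2:**
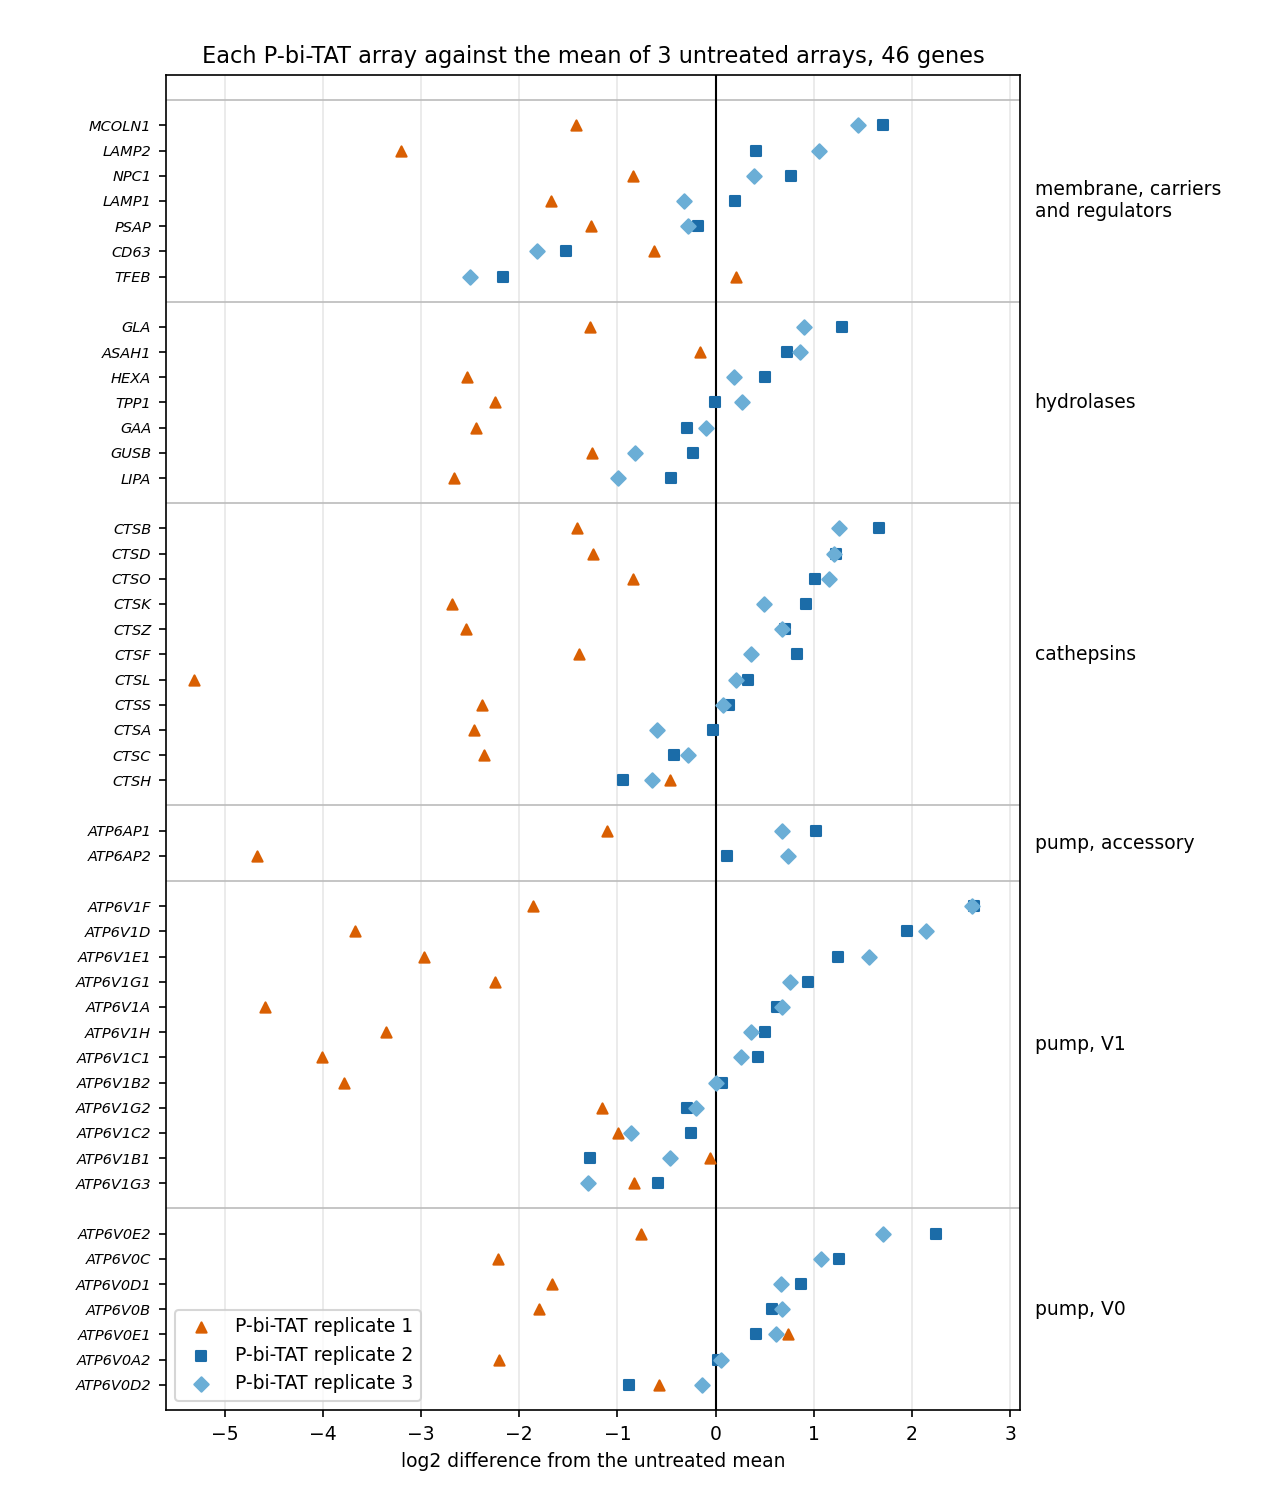
Difference of each P-bi-TAT array from the untreated mean (log2) for all 46 lysosomal genes, ordered by class. Replicate 1 lies below 0 for 44 of the 46 genes, while replicates 2 and 3 lie above 0 for 31 each.

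Among the cathepsins, CTSB and CTSD were higher in P-bi-TAT replicates 2 and 3. CTSB, a cysteine protease that also works as a carboxypeptidase, had 9.42, 9.44 and 8.74 in untreated replicates 1 to 3 and 7.79, 10.87 and 10.46 in P-bi-TAT replicates 1 to 3. Replicates 2 and 3 lay above all untreated arrays and replicate 1 below them. The difference was 0.51 (SE 0.84) with all arrays and 1.46 (SE 0.41), or 2.76-fold, without replicate 1 (limma, adjusted p = 0.217). CTSD, the main aspartic protease of the lysosome, had 9.21, 8.40 and 8.26 in untreated replicates 1 to 3 and 7.37, 9.85 and 9.83 in P-bi-TAT replicates 1 to 3, with the same pattern. It differed by 0.39 (SE 0.75) with all arrays and by 1.21 (SE 0.43), or 2.32-fold, without replicate 1 (limma, adjusted p = 0.273). CTSD lay outside the nominal limits after cyclic loess without replicate 1, at 0.83, and CTSB stayed within them at 1.07.

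CTSL, a cysteine endopeptidase, had 11.65, 11.02 and 11.59 in untreated replicates 1 to 3 and 6.11, 11.76 and 11.63 in P-bi-TAT replicates 1 to 3, so that replicate 1 lay far below and replicates 2 and 3 at the upper end of the untreated range. Its difference of -1.59 (SE 1.47) with all arrays was 0.27 without replicate 1. CTSK, a collagen-degrading protease best known from osteoclasts, had 11.12, 10.37 and 10.01 in untreated replicates 1 to 3 and 7.82, 11.42 and 11.00 in P-bi-TAT replicates 1 to 3, and differed by -0.42 with all arrays and 0.71 without replicate 1. CTSC, which activates granule proteases of immune cells, and CTSA lay below their untreated mean in all 3 arrays, with differences of -1.02 and -1.03 with all arrays and -0.35 and -0.31 without replicate 1. With all arrays and without replicate 1, CTSS, known from antigen-presenting cells, differed by -0.72 and 0.11, and CTSZ by -0.39 and 0.69. CTSF, CTSH and CTSO never exceeded the 95th percentile of negative controls. CTSO was not above the negative control median in untreated arrays, and passed the nominal limits higher without replicate 1 (limma, adjusted p = 0.322). Its mean in replicates 2 and 3 lay 1.6-fold above the control medians of the untreated arrays. CTSH was not above the negative control median on any P-bi-TAT array.

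The 7 other hydrolases differed in direction. GLA, the galactosidase that clears globotriaosylceramide, had 9.95, 8.91 and 8.96 in untreated replicates 1 to 3 and 8.0, 10.56 and 10.17 in P-bi-TAT replicates 1 to 3. Replicates 2 and 3 lay above all untreated arrays, and the difference was 0.30 (SE 0.75) with all arrays and 1.09 (SE 0.46), or 2.13-fold, without replicate 1 (limma, adjusted p = 0.334). After cyclic loess without replicate 1 GLA lay outside the nominal limits, at 0.70. LIPA, the acid lipase that releases cholesterol from lipoproteins, had 11.27, 10.58 and 10.80 in untreated replicates 1 to 3 and 8.22, 10.43 and 9.90 in P-bi-TAT replicates 1 to 3, with all 3 P-bi-TAT arrays below every untreated array. It differed by -1.37 (SE 0.64) with all arrays and -0.72 (SE 0.41) without replicate 1, short of the nominal limits in both, and by -1.12 after cyclic loess without replicate 1, within them. GUSB, which removes glucuronic acid from glycosaminoglycans, had 6.32, 6.79 and 6.49 in untreated replicates 1 to 3 and 5.27, 6.30 and 5.71 in P-bi-TAT replicates 1 to 3, also without overlap, and differed by -0.77 (SE 0.44) with all arrays and -0.53 (SE 0.40) without replicate 1. LIPA and GUSB were singled out after their values were seen. HEXA, which degrades gangliosides, TPP1, a peptidase, ASAH1, the acid ceramidase, and GAA overlapped between groups with all arrays. Their differences were -0.61, -0.66, 0.48 and -0.94 with all arrays and 0.35, 0.13, 0.79 and -0.20 without replicate 1.

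CD63 was the only gene of the 46 past the nominal limits with all 6 arrays, and it was lower after P-bi-TAT. It had 15.62, 15.20 and 14.75 in untreated replicates 1 to 3 and 14.56, 13.67 and 13.37 in P-bi-TAT replicates 1 to 3. All P-bi-TAT arrays lay below all untreated arrays, and replicate 1 was the highest of the 3. The mean was 15.19 ± 0.43 (SD, n = 3) untreated and 13.87 ± 0.62 (SD, n = 3) after P-bi-TAT, a difference of -1.32 (SE 0.49) (adjusted p = 0.847 in limma). Without replicate 1 the difference was -1.67 (SE 0.42), or 3.18-fold lower (adjusted p = 0.182). It no longer passed the nominal limits when either of the first 2 untreated arrays, or the second or the third P-bi-TAT array, was left out.

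TFEB, the regulator of lysosomal genes, never exceeded the 95th percentile of negative controls and lay lower in replicates 2 and 3. Its values were 4.91, 4.98 and 3.92 in untreated replicates 1 to 3 and 4.81, 2.44 and 2.10 in P-bi-TAT replicates 1 to 3. Replicates 2 and 3 lay below all untreated arrays, while replicate 1 lay within their range. The values corresponded to percentiles 70.3, 78.9 and 55.4 of the negative controls in untreated arrays and 88.7, 20.3 and 7.35 after P-bi-TAT, so TFEB was not above the negative control median in P-bi-TAT replicates 2 and 3. The difference was -1.49 (SE 0.78) with all arrays and -2.33 (SE 0.46) without replicate 1 (limma, adjusted p = 0.151). The untreated mean of TFEB lay 2.58-fold above the control medians of P-bi-TAT replicates 2 and 3 (3.21 and 3.27). Control medians were 3.67 to 3.98 on untreated arrays, so this fold includes the shift of the controls and is no lower limit.

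MCOLN1 lay higher in replicates 2 and 3. It had 6.34, 7.34 and 6.31 in untreated replicates 1 to 3 and 5.25, 8.37 and 8.12 in P-bi-TAT replicates 1 to 3, with replicate 1 below and replicates 2 and 3 above every untreated array. The difference was 0.58 (SE 0.88) with all arrays and 1.58 (SE 0.45), or 2.99-fold, without replicate 1 (limma, adjusted p = 0.221). LAMP1 had 10.00, 9.16 and 9.56 in untreated replicates 1 to 3 and 7.89, 9.77 and 9.25 in P-bi-TAT replicates 1 to 3, and its replicates 2 and 3 lay within the range of the untreated arrays. It differed by -0.60 (SE 0.59) with all arrays and -0.06 (SE 0.42) without replicate 1. With all arrays and without replicate 1, LAMP2, its relative with a role in chaperone-mediated autophagy, differed by -0.58 and 0.73, NPC1, which exports cholesterol from the lysosome, by 0.11 and 0.58, and PSAP, the precursor of sphingolipid activators, by -0.58 and -0.23. None of LAMP1, LAMP2, NPC1 and PSAP passed the nominal limits in either fit.

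Set side by side, the classes differed in how replicates 2 and 3 lay to the untreated mean. The pump genes had median differences of -1.85, 0.51 and 0.66 in P-bi-TAT replicates 1, 2 and 3, and 16 of 21 lay above the untreated mean in both of the last. The cathepsins had -2.36, 0.70 and 0.36, with 8 of 11 above in both. The hydrolases had -2.25, -0.01 and 0.19, with 3 of 7, and the membrane proteins and regulators -1.27, 0.20 and -0.28, with 3 of 7. Over all genes the medians were -1.23, -0.02 and -0.00, and 39.7% lay above in both. Without replicate 1 the class medians were 0.51, 0.59, 0.13 and -0.06 for pump, cathepsins, hydrolases and membrane proteins, and after cyclic loess without replicate 1 they were 0.08, 0.31, -0.24 and -0.45. With all arrays they were -0.53, -0.42, -0.66 and -0.58, against -0.43 for all genes. These medians are descriptions, and the differences between classes were not tested.

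**Figure D3:**
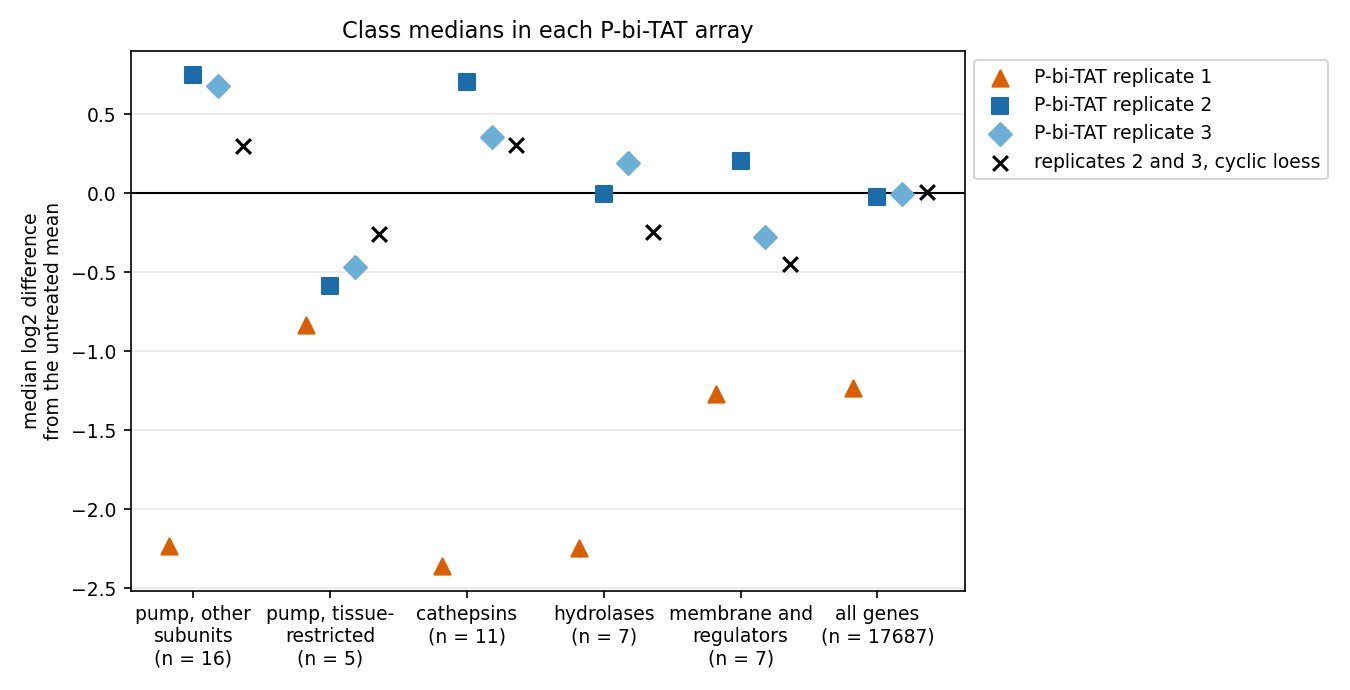
Median log2 difference from the untreated mean by class, with the 5 tissue-restricted pump isoforms apart from the other 16 subunits, for each P-bi-TAT array and, as crosses, for replicates 2 and 3 after cyclic loess. In replicates 2 and 3 the 16 other pump subunits (0.75 and 0.68) and the cathepsins (0.70 and 0.36) lie highest, and in replicate 1 every class but the 5 tissue-restricted isoforms (-0.83) lies below the median of all genes (-1.23).

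Genes with the motif TCACGTG and genes without it were also set side by side. The 10 genes with it (ATP6V0B, ATP6V0D1, ATP6V0E2, ATP6V1G1, CTSA, CTSD, CTSF, GAA, LAMP1 and MCOLN1) had median differences of -1.68, 0.85 and 0.67 in P-bi-TAT replicates 1, 2 and 3, with 8 and 7 of them above the untreated mean in replicates 2 and 3. The 22 with a window and no match had -1.57, 0.01 and 0.13, with 11 and 12 above. The sets also differ in brightness. Never above the 95th percentile of negative controls were ATP6V1B1, ATP6V1C2, ATP6V1G2, ATP6V1G3, CTSH and TFEB of the 22, and CTSF and GAA of the 10. The difference between the sets was not tested. Without replicate 1 the medians were 0.70 (range -0.31 to 1.97) and 0.09 (range -2.33 to 2.62), and the nominal limits were passed by 3 higher and 0 lower of the 10, and by 5 higher and 2 lower of the 22. With all arrays the medians were -0.13 and -0.67. The 2 pump genes with the largest differences, ATP6V1F and ATP6V1D, hold no match in their windows. Among all measured genes the median without replicate 1 was 0.19 for the 830 with the motif (100 higher and 26 lower) and 0.00 for the 13420 without it (1286 higher and 711 lower).

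**Figure D4:**
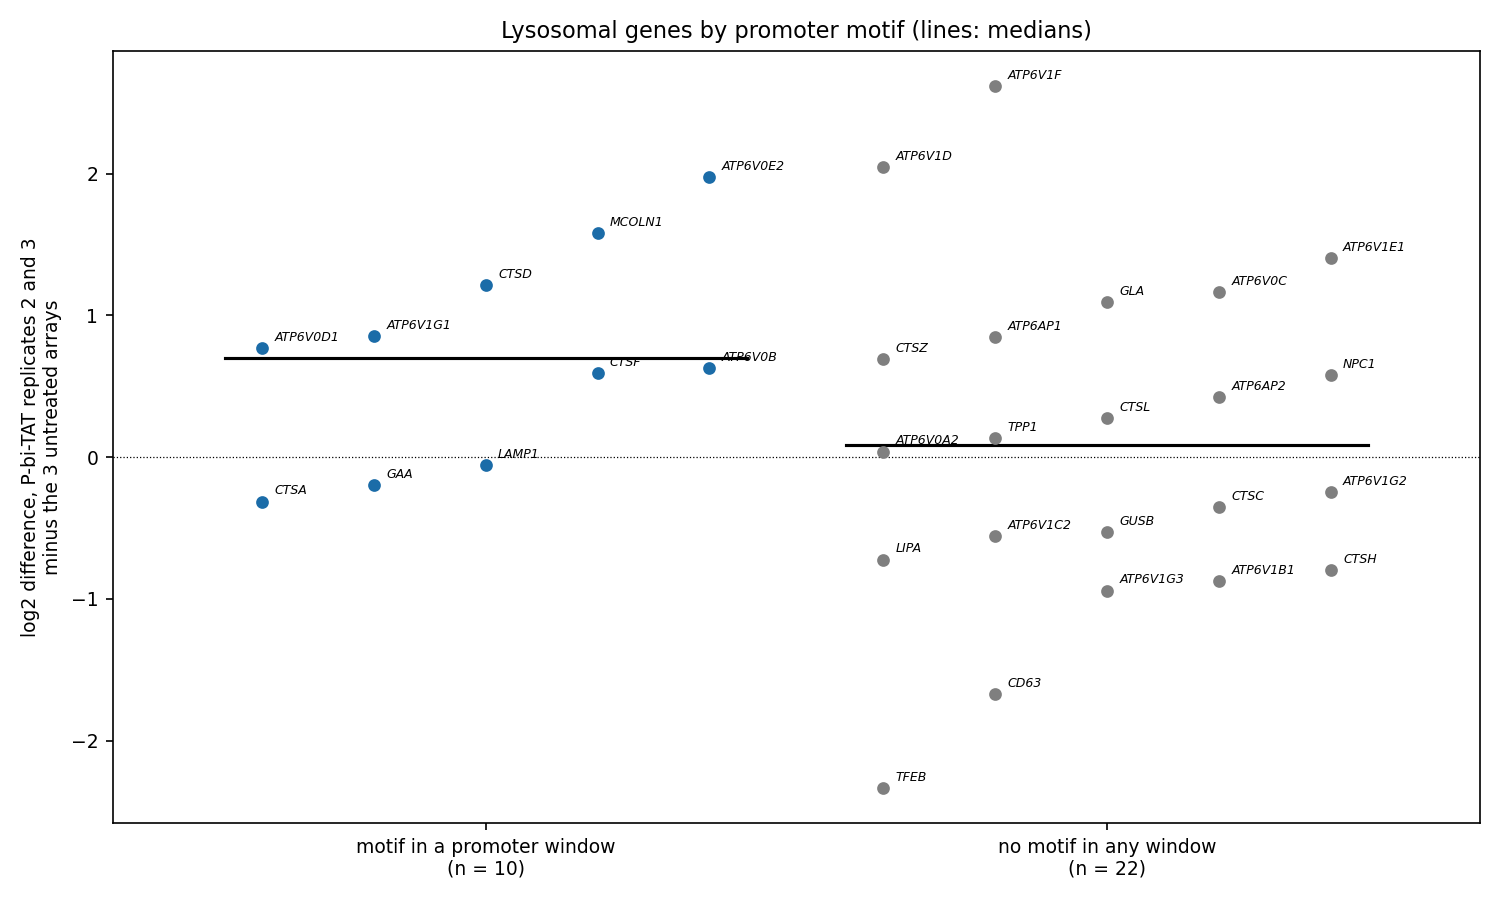
Log2 difference without P-bi-TAT replicate 1 for the 32 lysosomal genes with a promoter window, split by whether a window holds the motif. The 10 genes with it run from -0.31 to 1.97 and the 22 without it from -2.33 to 2.62, so the sets overlap over most of their range.

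Further lysosomal genes were counted from 7 lists chosen for their role, which together hold 88 genes, 77 of them measured. With all 6 arrays 0 of the 77 passed the nominal limits higher and 3 lower (3.9%, against 4.98% of all genes): LAPTM4A, HGSNAT and CST6. LAPTM4A, a membrane protein of late endosomes, had 15.79, 16.32 and 16.32 in untreated replicates 1 to 3 and 14.89, 14.69 and 14.49 in P-bi-TAT replicates 1 to 3. HGSNAT, an acetyltransferase of heparan sulfate breakdown, had 8.52, 8.07 and 8.34 in untreated replicates 1 to 3 and 5.25, 7.33 and 7.09 in P-bi-TAT replicates 1 to 3. CST6, cystatin E/M, an inhibitor of cysteine cathepsins, had 3.96, 4.09 and 4.11 in untreated replicates 1 to 3 and 2.88, 2.76 and 2.44 in P-bi-TAT replicates 1 to 3. Groups did not overlap for any of the 3, and the differences of LAPTM4A and HGSNAT were -1.45 (SE 0.39) and -1.75 (SE 0.62) with all arrays and -1.55 and -1.10 without replicate 1. CST6 was not above the negative control median on any P-bi-TAT array. Its untreated values lay at percentiles 49.5, 58.8 and 59.5 of the negative controls. The untreated mean of CST6 lay 1.78-fold above the control medians of the P-bi-TAT arrays (3.20 to 3.27). Control medians were 3.67 to 3.98 on untreated arrays, so this fold includes the shift of the controls and is no lower limit. HGSNAT no longer passed the limits with any 1 untreated array left out. Without replicate 1 the same 3 were past the limits in the lower direction (3.9%, against 5.31%).

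Without replicate 1, 15 of the 77 passed the nominal limits higher (19.5%, against 9.26% of all genes), and the median over the 77 was 0.26 (-0.38 with all arrays). After cyclic loess without replicate 1 the count was 9 (11.7%, against 6.36%), and IDS, ACP2, LGMN, CSTB, RRAGD and LAMTOR2 were no longer in it. Before that scaling, among 14 genes of the TFEB pathway and the Ragulator complex, which senses amino acids at the lysosome, 5 did so: TFE3, FNIP2, RRAGD, LAMTOR2 and LAMTOR4. TFE3, the relative of TFEB that binds the same motif, had 6.44, 6.24 and 6.44 in untreated replicates 1 to 3 and 5.29, 8.09 and 7.44 in P-bi-TAT replicates 1 to 3, with replicates 2 and 3 above and replicate 1 below all untreated arrays, and a difference of 0.57 (SE 0.74) with all arrays and 1.39 (SE 0.39) without replicate 1. With all arrays and without replicate 1, LAMTOR4, a Ragulator subunit, differed by 0.42 and 1.56 and RRAGD, a GTPase it anchors, by -0.24 and 0.93. Of 20 other hydrolases and activators 4 did so (NAGLU, IDS, GALNS and ACP2), of 7 other proteases 2 (LGMN and DPP7), and of 15 further membrane and transport proteins 1 (TMEM192). Of 6 cathepsin inhibitors 2 did so (CSTA and CSTB), of 10 regulators of the pump 1 (OXR1), and of 5 genes for sorting to lysosomes 0. As over all genes, 0 of the 77 passed an adjusted p under 0.05 in limma with or without replicate 1.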

How the data were processed

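Clariom S arrays measured RNA of U87MG cells, from 3 samples treated with P-bi-TAT (30 µM, 24 h) and 3 untreated samples with PBS. The files deposited by the authors hold 1 log2 value per probe set and array. Per the submitters' processing notes they were made by RMA with Transcriptome Analysis Console 4.0.1.36. The methods give SST-RMA and a different console version, and the sources used here do not settle this. The values were used as deposited, although the 6 columns do not share 1 distribution.

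Of 24351 rows, 2903 control probe sets were left out, and of 21448 gene probe sets 17709 carry 1 symbol in the array annotation. For each of the resulting 17687 genes the probe set of highest mean over the 6 columns was used. Groups were taken from the sample labels. The groups were compared over all genes with lmFit and eBayes of limma 3.58.1, run in R 4.3.3, with Benjamini-Hochberg adjustment. The limits of 1.5-fold and an unadjusted p under 0.05, which the supplements use, were counted as well. Negative control probe sets (612) gave the background. A group was called not above it where none of its arrays exceeded its own control median. The mean of the other group was then set against the average control median of the group at background. Such a fold therefore mixes the backgrounds of both groups. The number of arrays limits the precision. The fit was tested on simulated data in which no array was set apart from the others, unlike P-bi-TAT replicate 1 here.

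Genes were named by a rule: members past 1.5-fold and an unadjusted p under 0.05 with all arrays, the 2 largest differences in each direction and class without P-bi-TAT replicate 1, and TFEB, LAMP1, CTSD, ATP6V1A and ATP6V0D1, with other members added for their roles. The members, the gene lists and the rule were chosen with earlier results of these data known. Alternatives left out each array, used the replicate number as a block, rescaled the columns, left out the dimmest probe sets, varied the moderation, used array weights, the methods' one-way test or the mean of a gene's probe sets. Cyclic loess, with and without P-bi-TAT replicate 1, was added after seeing the data.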

Additional observations from a re-analysis of the deposited data

How the results depend on the processing

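An adjusted p under 0.05 was reached by 0 of the 46 under any of 18 alternatives. Of all genes 7 did so with array weights, 1 with the one-way test, and 0 with any array left out. Genes higher at the nominal limits numbered 34 of all genes, and 675 after quantile normalization, 381 after median centring, 12 without the dimmest probe sets, 57 with an intensity trend, 1928 with array weights, 992 without P-bi-TAT replicate 1 after quantile normalization, and 790 and 1125 after cyclic loess with and without that array (7 to 1638 leaving out an array). Genes lower numbered 880, and 552 after quantile normalization, 220 after median centring, 276 without the dimmest probe sets and 1694 with array weights (568 to 939 leaving out an array).

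Of the 46, 0 were higher, and 5 after quantile normalization, 1 after median centring, 10 with array weights, 1 with the one-way test, 7 without P-bi-TAT replicate 1 after quantile normalization, and 5 and 7 after cyclic loess with and without that array (0 to 10 leaving out an array). CD63 alone was lower, and the count was 0 after median centring, without the dimmest probe sets and after cyclic loess, 2 with an intensity trend and with the one-way test, 3 with array weights, and 4 without P-bi-TAT replicate 1 after quantile normalization or cyclic loess (0 to 2 leaving out an array, where the 1 without P-bi-TAT replicate 2 is LIPA). Leaving out an array moved the class medians from -0.71 to 0.51 (pump), -0.93 to 0.59 (cathepsins), -1.04 to 0.13 (hydrolases) and -1.0 to -0.06 (membrane proteins and regulators), the last being 0.0212 after quantile normalization. The differences of ATP6V1D (-0.86 to 2.05), CTSB (-0.0757 to 1.46), CTSD (-0.0242 to 1.21) and GLA (-0.19 to 1.09) changed sign with an array left out. With all arrays the median of all genes moved from -0.43 to -0.00 after quantile normalization and to 0.08 after median centring, and the medians of pump, cathepsins and hydrolases to 0.13, -0.28 and -0.08, and to -0.02, 0.09 and -0.15. The cause was not tested.

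Samples share only a replicate number: deviations of same-numbered arrays correlated at 0.30, 0.04 and 0.33. With the number as a block 30 of all genes were higher and 765 lower, and of the 46 genes 0 and 1, CD63, so no call on the 46 changed. With 3 arrays a group, 1 of them apart from the rest, small differences could not be resolved. Among the 46, larger ones did not pass an adjusted p under 0.05 either. ATP6V1F, 6.15-fold higher without P-bi-TAT replicate 1, had an adjusted p of 0.151 in limma.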
